A study of Mus musculus with 4 samples.

Results

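The clustered protocadherins were taken as all genes on mouse chromosome 18 whose symbols begin with *Pcdha*, *Pcdhb* or *Pcdhg*. This rule gave 58 of the 55602 genes in the count table, of which 14 belong to the alpha cluster, 22 to the beta cluster and 22 to the gamma cluster. RNA-seq was performed on day 12-differentiated JB1 cells, with 2 wild-type and 2 Zfp57-/- libraries. JB1 is a male F1 hybrid mouse embryonic stem cell (ESC) line from a JF1 mother and a C57BL/6 (B6) father, and the Zfp57-/- cells are 1 knock-out line derived from it. All cells of both genotypes were grown in a defined differentiation medium with 1 µM of cyclopamine, an inhibitor of sonic hedgehog signalling, up to day 10, and were harvested at day 12 as neural precursor cells. ZFP57 is a KRAB zinc finger protein that maintains methylation at imprinting control regions.

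Clustered protocadherins are cadherin-like adhesion molecules of the neuronal surface. In the alpha and gamma clusters each variable exon has its own promoter and is spliced to constant exons that are shared by the whole cluster, whereas the beta genes are mostly single exons without a constant part. Each neuron chooses a few of the alternate promoters at random, while the C-type members (*Pcdhac1*, *Pcdhac2*, *Pcdhgc3*, *Pcdhgc4* and *Pcdhgc5*) are transcribed more broadly. Proteins of the same kind bind each other on opposing membranes, which gives neurites a way to recognize their own sister branches. CTCF and cohesin bring the promoters to distal enhancers, and DNA methylation together with SMCHD1 keeps unchosen promoters silent.

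In GRCm38, the members span 911.7 kb of chromosome 18, from 36930184 to 37841873, all on the plus strand. The alpha cluster comes first, the beta cluster follows, and *Slc25a2* and *Taf7* lie between the beta and the gamma clusters. Fragments in a constant exon belong to several genes and were not assigned to any of them, so that the counts of the alpha and gamma genes come from their own exon bases. These made up a median of 46.4% of the exon bases of an alpha gene and 55.3% of those of a gamma gene. The beta genes kept a median of 100% of their bases. Gene models *Gm42416*, *Gm37013* and *Gm37388* run from the alpha into the gamma cluster, share exons with members and had 0 counts in every library. Members with near-identical sequence lose fragments that align to more than 1 place, and *Pcdhb21* and *Pcdhb22* overlap, so the counts of single members are uncertain to that degree. The symbol *Pcdha11* is attached to 2 gene identifiers, and the one at 37005203 is called *Pcdha10* here because RefSeq places *Pcdha10* there in the same build.

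The libraries held between 7663520 and 10337082 counts. The members took 4730 and 4167 of these in wild-type against 1828 and 2017 in Zfp57-/- cells, which is between 0.0192% and 0.0617% of a library. The targeted gene *Zfp57* had 392 and 249 counts in wild-type against 158 and 144 in Zfp57-/- cells. It gave 235 JF1 and 130 B6 allelic reads in wild-type cells, but 0 JF1 and 158 B6 reads in Zfp57-/- cells, where a count of 0 allows a JF1 share of up to 1.9%. Which part of the gene was deleted was not used here, so that counts over the whole gene are only a partial check of the genotype. The cells also differed in their make-up. Of 14 neuron markers, 13 were lower in Zfp57-/- cells, and their summed level was 21000 and 26400 normalized counts in wild-type against 3380 and 2880 in Zfp57-/- cells. Of 10 neural progenitor markers, 7 were lower, and of 12 pluripotency markers, 11 were higher. Over all genes tested, 14.6% were called lower and 2607 of 19995 higher. In bulk RNA, fewer cells of a type and less RNA per cell cannot be told apart.

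The summed level of the family fell to 40.9% of its wild-type level in Zfp57-/- cells, and the 3 clusters fell by very different amounts. The summed level of the alpha cluster was 256 and 176 normalized counts in wild-type against 26.3 and 18.3 in Zfp57-/- cells, a 9.71-fold lower mean. The beta cluster summed to 2270 and 1670 in wild-type and to 412 and 411 in Zfp57-/- cells, which was 4.79-fold lower. The gamma cluster summed to 2990 and 1900 in wild-type and to 1410 and 1510 in Zfp57-/- cells, which was 1.67-fold lower. The genotypes did not overlap for any of the 3 sums, and the gap was narrow only for gamma, whose wild-type replicates also lay farthest apart (2440 ± 770 in wild-type and 1460 ± 72.9 in Zfp57-/- cells, mean ± SD, n = 2). A sum was not tested, because 2 libraries against 2 cannot give a two-sided exact permutation p below 0.333.

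The make-up of the family therefore shifted toward gamma. The gamma genes gave 54.2% and 50.7% of the members' counts in wild-type cells and 76.3% and 77.9% in Zfp57-/- cells. The beta genes went from 41.2% and 44.6% to 22.3% and 21.2%. The alpha genes went from 4.65% and 4.7% to 1.42% and 0.942%. These shares depend on the counts of the members alone and not on how the libraries were scaled.

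**Figure D1:**
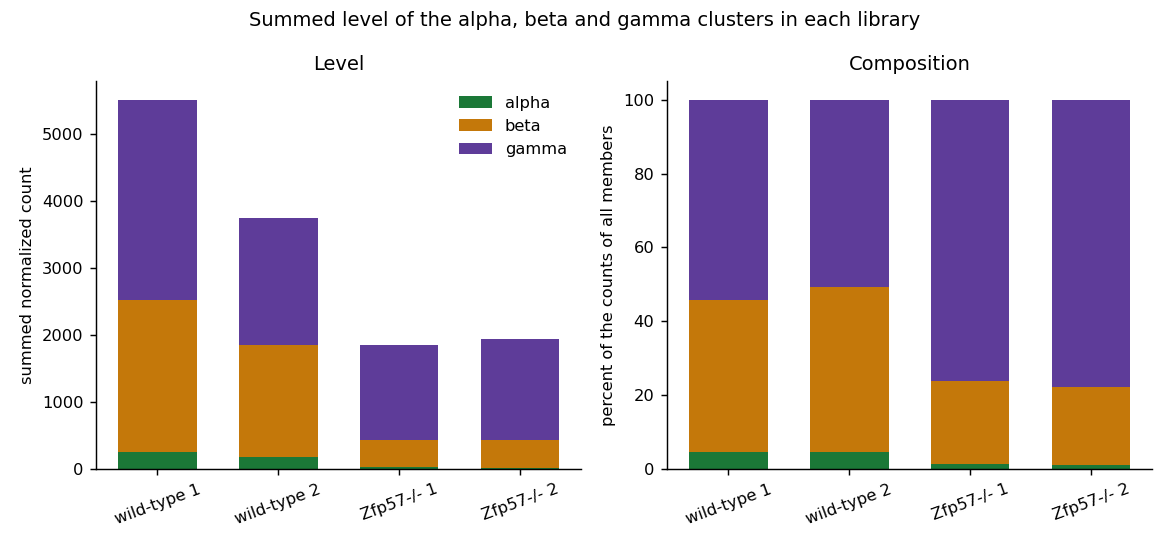
Stacked bars give the summed normalized counts (left) and the percent of the members' counts (right) of the alpha, beta and gamma clusters in each of the 4 libraries. The gamma share was above 76% in both Zfp57-/- libraries and below 55% in both wild-type libraries.

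Genes were compared between genotypes by edgeR's quasi-likelihood test with Benjamini-Hochberg adjustment over the 19995 genes with more than 8 counts in all, and called at an adjusted p under 0.05. Of the 58 members, 54 could be tested, 29 were lower in Zfp57-/- cells, 25 were not called and 0 were higher. No member with a positive fold change had an unadjusted p under 0.05, and DESeq2 also called 0 members higher and 23 lower. Over all 19995 genes 14.6% were called lower and 2607 genes higher, 27.6% being called in all, so that the members' share of 53.7% lower calls lay well above the background. The number of members called rose without either wild-type replicate and fell without either Zfp57-/- replicate. The number of calls over all genes moved in the same direction each time. The median log2 fold change of the 54 members was -2.02, against -0.01 for all genes tested. Many members were seen only because of their wild-type counts: 36 of the 54 had more than 8 counts in the Zfp57-/- libraries alone, and 16 of these 36 were called lower.

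In order along the chromosome, the fitted log2 fold changes were most negative in the alpha cluster and in most of the beta cluster, became less so at the 3′ end of the beta cluster, and were closest to 0 in the gamma cluster. Spearman's rho between the order of the members and their log2 fold change was 0.766 over the 54 members tested, and 0.305 over the 21 beta and -0.151 over the 22 gamma members alone. The members share their libraries, and order and cluster cannot be told apart across the family. The rho with the wild-type level was 0.442 over the same 54 members. Of the 54, 18 members (11 alpha and 7 beta) had 8 or fewer counts in the Zfp57-/- libraries and passed the count filter through wild-type cells, which favours negative values at the 5′ end. Over the other 36 members, a choice made after the data were seen, the rho with the order was 0.618 and that with the wild-type level was -0.169.

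**Figure D2:**
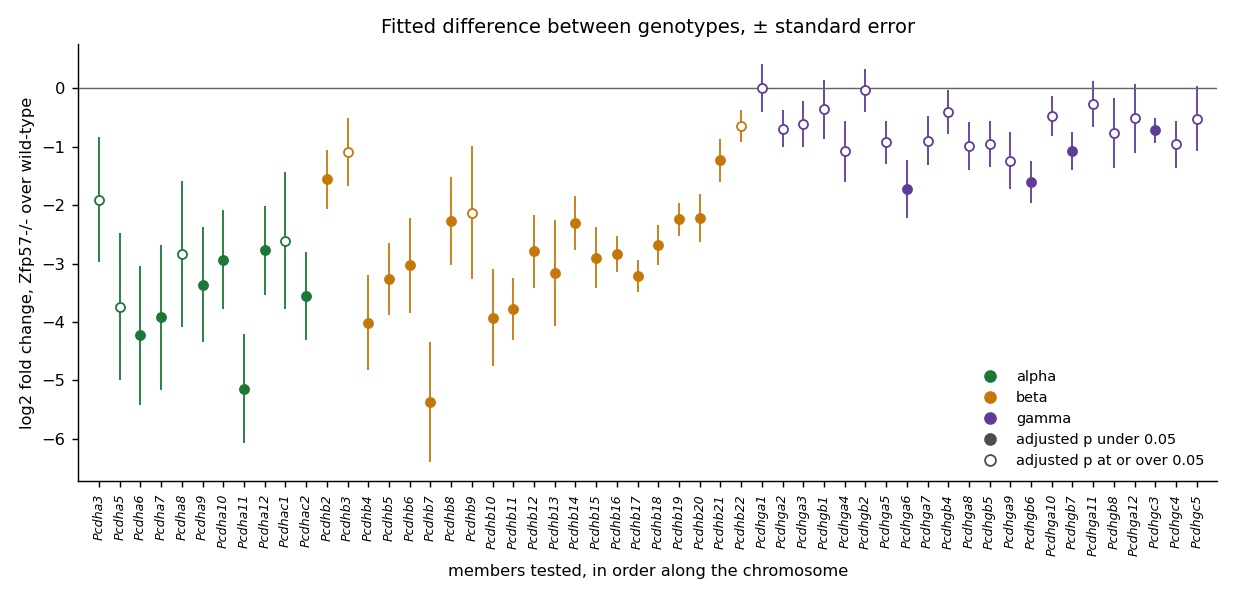
Points give the fitted log2 fold change (Zfp57-/- over wild-type) of the 54 members tested, with the standard error as bars, in order along the chromosome, and filled points passed an adjusted p of 0.05. The filled points are 7 alpha, 18 beta and 4 gamma members, and the values run from -5.37 for *Pcdhb7* to 0.01 for *Pcdhga1*.

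The alpha cluster was nearly silent in Zfp57-/- cells. Of its 14 genes, 11 could be tested and 7 were called lower, against 14.6% of all genes. No alpha gene had more than 8 counts in the Zfp57-/- libraries, so that these tests rest on the wild-type counts. The 7 calls became 3 when either Zfp57-/- replicate was left out, and 9 when either wild-type replicate was left out. The median log2 fold change of the 11 genes was -3.36, with a range from -5.14 to -1.91. At 12 of the 14 genes both wild-type libraries lay above both Zfp57-/- libraries, the exceptions being *Pcdha2* and *Pcdha4*, which had 5 and 8 counts in all. Such a gap in this direction was seen at 32.6% of all genes tested.

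*Pcdha11*, an alternate gene, had 43 and 31 counts in wild-type against 0 and 2 in Zfp57-/- cells. The wild-type rate was 38.1 times that of Zfp57-/- cells with an exact 95% counting interval from 10.2 to 320, and its adjusted p of 0.00316 was the smallest of the cluster. *Pcdha9* had 17 and 37 counts in wild-type against 5 and 0 in Zfp57-/- cells, with a log2 fold change of -3.36 ± 0.99 (SE) and an adjusted p of 0.0308, and was not called without Zfp57-/- replicate 2 (adjusted p 0.188). Each of these genes was close to undetected in at least 1 Zfp57-/- library. *Pcdhac2*, a C-type gene at the 3′ end of the cluster next to the constant exons, had 44 and 24 counts in wild-type against 3 and 3 in Zfp57-/- cells (adjusted p 0.00689, log2 fold change -3.56 ± 0.75). *Pcdhac1*, the other alpha C-type gene, had 27 and 7 counts against 0 and 6, and its log2 fold change of -2.61 ± 1.17 was not called (adjusted p 0.126). Its low wild-type replicate was only just above its high Zfp57-/- replicate. The other called alpha genes were *Pcdha6*, *Pcdha7*, *Pcdha10* and *Pcdha12*, with adjusted p between 0.0232 and 0.0413.

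At the 5′ end of the alpha cluster, *Pcdha1*, *Pcdha2* and *Pcdha4* gave almost no reads. *Pcdha1* had 2 and 3 counts in wild-type against 0 and 0 in Zfp57-/- cells, *Pcdha2* had 3 and 0 against 2 and 0, and *Pcdha4* had 3 and 2 against 3 and 0. These members were not tested. *Pcdha3*, which lies among them, had 3 and 13 counts against 3 and 1, and was tested but not called (adjusted p 0.217). Within the cluster, *Pcdha9* to *Pcdhac2*, the last 6 genes, held 76.8% and 71.4% of the alpha counts in wild-type cells. Per kilobase of own exon bases, wild-type alpha genes reached at most 1.28 CPM (counts scaled to a common library size), at *Pcdhac2*, with a median of 0.549. *Pcdha4* has only 494 own exon bases, and its 3 and 2 wild-type counts came to 0.569 CPM per kilobase, near that median.

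**Figure D3:**
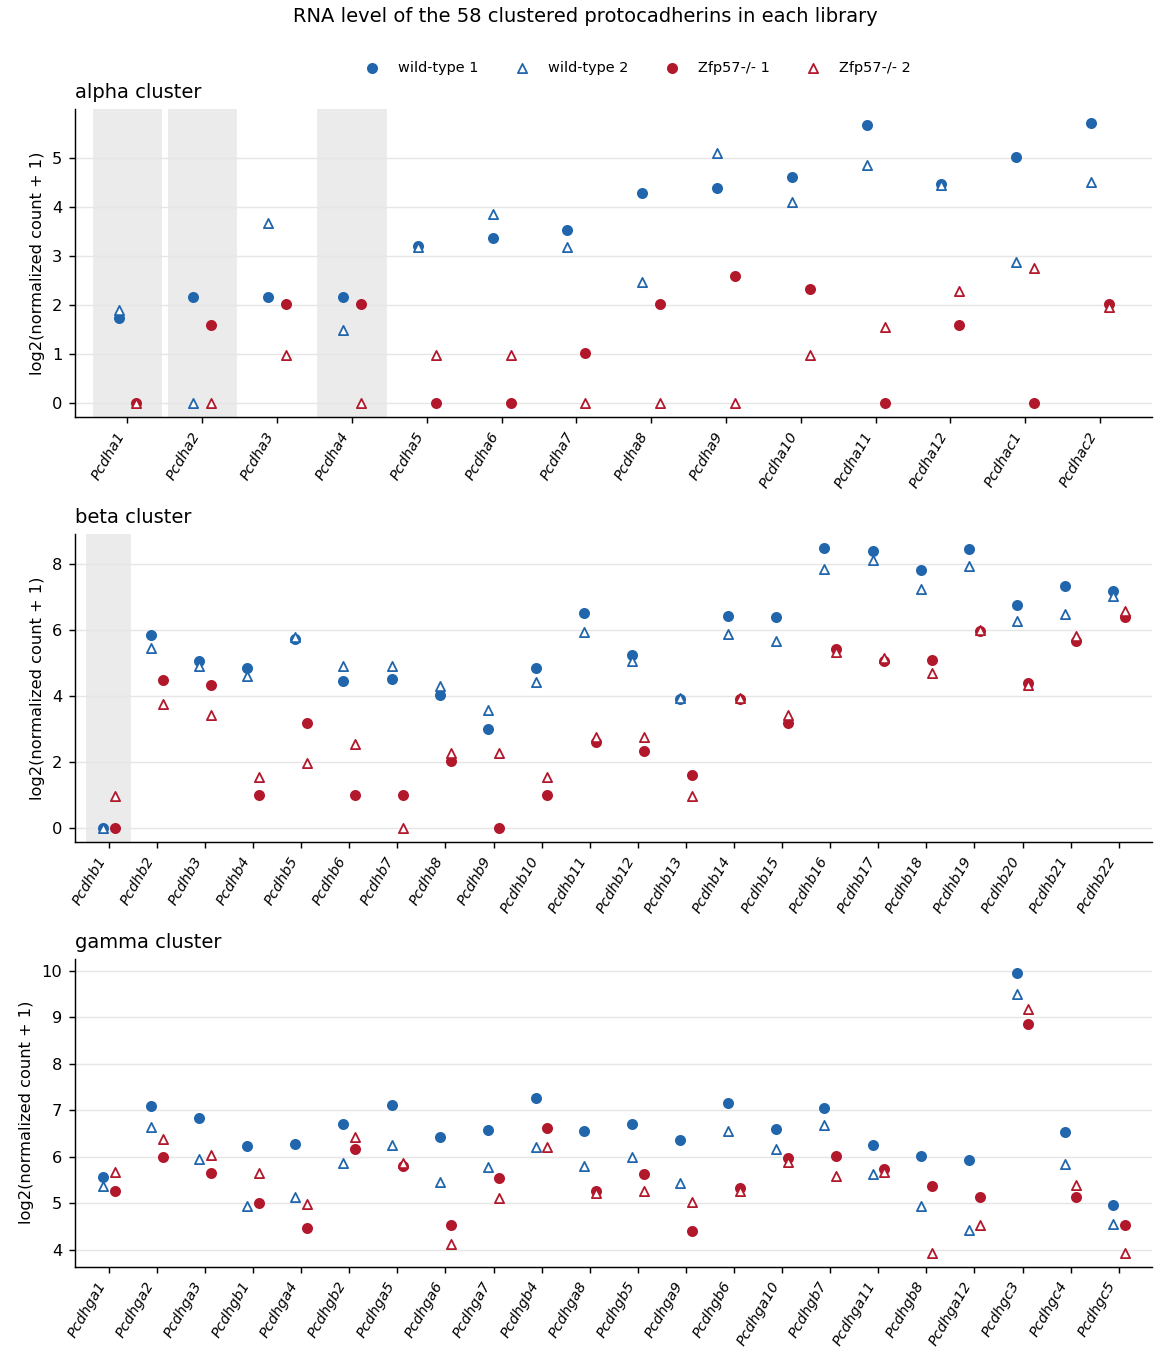
Points give log2(normalized count + 1) of each of the 58 members in each library, by cluster and in order along the chromosome, with grey bands for the 4 members that had too few counts to be tested. Wild-type libraries lie above Zfp57-/- libraries at all 21 beta members tested, and overlap with them at 8 of the 22 gamma members.

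The beta genes were lower almost throughout. Of 22 genes, 21 could be tested and 18 were called lower, against 14.6% of all genes. At all 21 the genotypes did not overlap, against 32.6% of all genes with such a gap in this direction. The median log2 fold change was -2.79. The 18 calls became 10 without Zfp57-/- replicate 1 and 13 without Zfp57-/- replicate 2. *Pcdhb1*, the first gene of the cluster, had 1 count in all and was not tested. Of the 14 beta genes that had more than 8 counts in the Zfp57-/- libraries alone, 12 were called.

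The genes *Pcdhb16* to *Pcdhb20* gave most of the beta counts. They held 61.2% and 58.7% of the beta counts in wild-type cells and 46.3% and 44.3% in Zfp57-/- cells, and all 5 were called lower. *Pcdhb17* had the smallest adjusted p of the family: it had 292 and 313 counts in wild-type against 32 and 36 in Zfp57-/- cells, and fell by 3.21 on the log2 scale (SE 0.27, adjusted p 2.96e-05). *Pcdhb16* had 309 and 255 counts against 42 and 41, and fell by 2.84 (SE 0.31, adjusted p 0.00014). *Pcdhb19* had 305 and 271 counts against 62 and 66, and fell by 2.24 (SE 0.28, adjusted p 0.000315). In each of these genes the gap between the genotypes was larger than that between the replicates of either genotype. Per kilobase, *Pcdhb17* and *Pcdhb16* were the highest beta genes of wild-type cells at 7.09 and 5.99 CPM, against 0.763 and 0.832 in Zfp57-/- cells. *Pcdhb18* and *Pcdhb20* had log2 fold changes of -2.68 and -2.22.

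Upstream of these genes, *Pcdhb2* to *Pcdhb15* lay between 0.309 and 2.55 CPM per kilobase in wild-type cells and between 0.0153 and 0.637 in Zfp57-/- cells, and 12 of these 14 were called lower. *Pcdhb7* had 19 and 32 counts in wild-type against 1 and 0 in Zfp57-/- cells, and the ratio of the rates was 52.5 with an exact 95% counting interval from 9.01 to 2110. *Pcdhb11* had 78 and 67 counts against 5 and 6, and fell by 3.77 (SE 0.53, adjusted p 0.000696). *Pcdhb15* had 72 and 56 against 8 and 10, and fell by 2.90 (SE 0.52, adjusted p 0.00288). *Pcdhb2* and *Pcdhb3*, at the 5′ end of these genes, had smaller log2 fold changes. *Pcdhb2* had 49 and 48 counts in wild-type against 21 and 13 in Zfp57-/- cells (adjusted p 0.0447, log2 fold change -1.56 ± 0.51). This call was lost with DESeq2 (adjusted p 0.0602), with upper-quartile scaling, on the *Actb* scale and without either Zfp57-/- replicate (adjusted p between 0.0537 and 0.39). *Pcdhb3* had 28 and 32 against 19 and 10, and its log2 fold change of -1.09 ± 0.58 was not called (adjusted p 0.193).

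At the 3′ end of the beta cluster the differences were again smaller. *Pcdhb21* had 138 and 98 counts in wild-type against 49 and 58 in Zfp57-/- cells, and fell by 1.23 (SE 0.37, adjusted p 0.032), but was not called without either Zfp57-/- replicate. *Pcdhb22*, the last beta gene, had 125 and 145 counts against 82 and 98, and was not called at a log2 fold change of -0.64 ± 0.27 (adjusted p 0.11). The share of *Pcdhb22* in the beta counts was 6.42% and 7.8% in wild-type against 20.1% and 23.0% in Zfp57-/- cells, and at 1.53 CPM per kilobase it was the highest beta gene there. Whether these genes differ in their change from *Pcdhb16* to *Pcdhb20* was not tested.

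The gamma cluster was the least affected. Of 22 genes, all of which could be tested and had more than 8 counts in the Zfp57-/- libraries alone, 4 were called lower, and this share of 18.2% was near the 14.6% of all genes. The fitted value was below 0 for 21 of the 22, against 50.4% of all genes, and the median log2 fold change was -0.74. The genotypes did not overlap at 14 of the 22 genes, with wild-type above, against 32.6% of all genes. The wild-type replicates differed in one way throughout, as all 22 genes had a higher normalized count in wild-type replicate 1 than in replicate 2. The number of gamma calls rose without wild-type replicate 2, stayed the same without wild-type replicate 1, and fell without either Zfp57-/- replicate. The calls over all genes rose without either wild-type replicate and fell without either Zfp57-/- replicate. Without wild-type replicate 1 the fitted value of 5 genes, *Pcdhgb1*, *Pcdhgb2*, *Pcdhgb4*, *Pcdhga11* and *Pcdhga12*, changed from negative to positive, and none of these 5 was called in either case.

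*Pcdhgc3* was by far the most abundant member per length. This C-type gene had 851 and 807 counts in wild-type against 457 and 600 in Zfp57-/- cells, and fell by 0.72 on the log2 scale (SE 0.22, adjusted p 0.037). At 27.0 CPM per kilobase in wild-type and 16.3 in Zfp57-/- cells it stood above every other member in both genotypes. It made up 33.2% and 38.2% of the gamma counts in wild-type cells and 32.8% and 38.2% in Zfp57-/- cells, so that its share was alike in the genotypes. The other gamma C-type genes were lower on average without being called. *Pcdhgc4* had 79 and 63 counts against 34 and 43 (log2 fold change -0.96 ± 0.41, adjusted p 0.106). *Pcdhgc5* had 26 and 25 against 22 and 15 (log2 fold change -0.52 ± 0.56, adjusted p 0.529). Thus 2 of the 5 C-type genes of the family, *Pcdhac2* and *Pcdhgc3*, were called lower, against 14.6% of all genes, and the count was 4 without wild-type replicate 2 and 1 without Zfp57-/- replicate 1.

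The remaining gamma calls were alternate genes. *Pcdhgb6* had 123 and 103 counts in wild-type against 39 and 39 in Zfp57-/- cells, and fell by 1.61 (SE 0.36, adjusted p 0.00869). *Pcdhga6* had 73 and 48 counts against 22 and 17, and fell by 1.72 (SE 0.50, adjusted p 0.0294). *Pcdhgb7* had 113 and 113 counts against 63 and 49, and fell by 1.07 (SE 0.33, adjusted p 0.0371), and was not called by DESeq2 (adjusted p 0.052). Their immediate neighbours were not called, but all had negative fitted values, down to -1.24 ± 0.49 at *Pcdhga9* (adjusted p 0.0865). Whether neighbours differ from the called genes was not tested. *Pcdhga1*, the first gene of the cluster, was the only member with a positive fitted value, and it had 40 and 45 counts in wild-type against 37 and 52 in Zfp57-/- cells (log2 fold change 0.01 ± 0.41). *Pcdhga2* (117 and 111 counts against 62 and 86) and *Pcdhgb4* (131 and 82 against 96 and 76) had log2 fold changes of -0.69 ± 0.32 and -0.40 ± 0.38. By type, 1 of the 12 gamma A genes (8.33%) and 2 of the 7 gamma B genes (28.6%) were called lower, against 14.6% of all genes, and the summed levels of both types stood at 59.3% and 60.2% of wild-type.

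Genes around the clusters were not lower as a group. Within 500 kb on either side, 27 other genes could be tested, of which 6 were higher, 1 was lower and 20 were not called. Their median log2 fold change was 0.18. Over all genes, 2607 of 19995 were called higher and 14.6% lower. *Zmat2*, the nearest tested gene upstream, had 481 and 862 counts in wild-type against 647 and 886 in Zfp57-/- cells (log2 fold change 0.17 ± 0.23). *Diaph1*, a formin that begins 1.7 kb beyond the last gamma exon on the opposite strand, had 333 and 475 against 594 and 656 counts (log2 fold change 0.59 ± 0.19, adjusted p 0.0419). *Taf7*, which encodes a subunit of the general transcription factor TFIID and lies between the beta and gamma clusters on the opposite strand, had 700 and 1155 counts against 1344 and 1518 (log2 fold change 0.60 ± 0.20, adjusted p 0.0483). When libraries were scaled by *Actb* instead, which put the median of all genes at -0.68, the values of *Diaph1* and *Taf7* became -0.07 and -0.03. Neither gene was called when either Zfp57-/- replicate was left out. Inside the members' span, 11 other genes were tested, of which *Taf7* was higher, 3 were lower and 7 were not called. The 3 that were lower, *Gm36858*, *Gm19035* and *Gm20162*, are low-count models on the same strand as the members. *Gm36858* had 13 and 11 counts in wild-type against 0 and 0 in Zfp57-/- cells, which was at least 8.24-fold lower against a floor of 3 counts over the group. *Slc25a2*, next to *Taf7*, had 15 and 17 against 24 and 10 counts and was not called.

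Protocadherins outside the clusters, which have their own promoters and no shared exons, were also mostly lower. Of 12 tested, 8 were lower, against 14.6% of all genes, 1 was higher and 3 were not called. Their median log2 fold change was -1.72. The count of 8 became 4 without Zfp57-/- replicate 1. *Pcdh8* fell by 2.98 (SE 0.31, adjusted p 0.000101) and *Pcdh9* fell by 3.48 (SE 0.37, adjusted p 0.000116). *Pcdh1*, which lies 344.0 kb downstream of the clusters, was higher with 194 and 210 counts in wild-type against 349 and 380 in Zfp57-/- cells (adjusted p 0.0205, log2 fold change 0.79 ± 0.21), was not called without either Zfp57-/- replicate, and stood at 0.07 on the *Actb* scale. *Pcdh12*, in the same region, was lower with 44 and 33 against 11 and 7 counts (log2 fold change -2.16 ± 0.60, adjusted p 0.0244), and was likewise not called without either Zfp57-/- replicate.

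Of the factors that act on protocadherin promoters, calls were found among those of silencing and DNA methylation and not among the architectural ones, and whether these lists differ was not tested. None of the 12 genes for CTCF and cohesin was called by edgeR, against 27.6% of all genes, or by DESeq2. By edgeR 2 had an unadjusted p under 0.05. Without wild-type replicate 1, 3 were called lower and 1 higher, and without wild-type replicate 2, 2 lower and 3 higher. *Ctcf* had a log2 fold change of 0.12 ± 0.20. Among 17 genes of cluster silencing and DNA methylation, 5 were higher, 4 were lower and 8 were not called. Over all genes, 2607 of 19995 were called higher and 14.6% lower. The 4 lower calls became 8 without wild-type replicate 2, 1 without Zfp57-/- replicate 1 and 2 without Zfp57-/- replicate 2. *Dnmt3b*, the methyltransferase that methylates alternate protocadherin promoters in the embryo, had 196 and 324 counts in wild-type against 2018 and 2449 in Zfp57-/- cells (adjusted p 1.32e-05, log2 fold change 3.08 ± 0.22). *Dnmt3l*, its catalytically inactive cofactor, had 2 and 8 counts against 1031 and 999 (log2 fold change 7.60 ± 0.35, adjusted p 1.75e-06). *Smchd1*, which silences the clusters, was not called at -0.17 ± 0.19. *Tet3*, which oxidizes methylated cytosine, fell by 1.05 (SE 0.19, adjusted p 0.00341). It was not called without Zfp57-/- replicate 1 (adjusted p 0.129). DNA methylation at the protocadherin promoters was not analysed here, and the part of these factors in the levels of the members was not tested.

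Among 19 genes for partners and processing of protocadherins, 8 were lower, against 14.6% of all genes, 1 was higher and 10 were not called. Fewer were called lower without either Zfp57-/- replicate. *Cyfip2*, of the WAVE complex that binds protocadherin tails, fell by 2.09 (SE 0.20, adjusted p 6.38e-05), and *Marcks*, an actin and membrane protein of neurites, fell by 1.76 (SE 0.20, adjusted p 0.000168). *Ptk2b*, the PYK2 kinase that the alpha and gamma constant domains bind and inhibit, had 18 and 32 counts in wild-type against 192 and 218 in Zfp57-/- cells (adjusted p 0.000113, log2 fold change 3.00 ± 0.31). The related kinase gene *Ptk2* was not called, at -0.36 ± 0.18.

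The cell type markers also differed between the genotypes. The summed level of the 14 neuron markers was 7.57-fold lower in Zfp57-/- cells, with *Dcx*, a microtubule protein of young neurons, at 1795 and 2663 against 24 and 29 counts and *Map2*, of dendrites, at 5540 and 6627 against 376 and 291. No neuron marker was at 0 in any library. The neuron sum was higher in wild-type replicate 2 than in replicate 1, with *Tubb3* at 2600 normalized counts in replicate 1 and 5460 in replicate 2. Single neuron markers went both ways: *Map2*, *Rbfox3*, *Elavl4*, *Ncam1* and *Syp* were higher in replicate 1 and the others in replicate 2. Of the 58 members, 47 had a higher normalized count in replicate 1, and the share of all genes that did is not given here. Neural progenitor markers summed to 16900 and 18200 in wild-type and to 11400 and 11500 in Zfp57-/- cells. *Hes5*, the most changed of these 10 markers, had 317 and 459 counts in wild-type against 12 and 10 in Zfp57-/- cells. While 7 were called lower, 3 were not called, among them *Vim* (log2 fold change -0.25 ± 0.20) and *Sox2* (0.49 ± 0.19). *Vim* gave the largest part of the sum, with means of 8220 and 6920 normalized counts. Pluripotency markers summed to 742 and 1460 in wild-type and to 14900 and 13700 in Zfp57-/- cells, where *Nanog*, at 0 in both wild-type libraries, had 903 and 938 counts and *Pou5f1* had 2747 and 2286 against 1 and 6. Of 7 glia markers 3 were lower (0 without Zfp57-/- replicate 1 and 1 without Zfp57-/- replicate 2), of 10 endoderm markers 2 were lower (with 4 lower and 5 higher without wild-type replicate 2), and of 9 mesoderm and endothelial markers tested 4 were higher and 1 was lower. For comparison, 14.6% of all genes were called lower and 2607 of 19995 higher. The lower calls in the endoderm list and in the mesoderm and endothelial list were near that share. Endoderm markers summed to 18900 and 27800 in wild-type and to 28100 and 39100 in Zfp57-/- cells. For mesoderm and endothelial markers the sums were 1680 and 2580 against 6510 and 6720, and for glia markers 3960 and 3460 against 1930 and 2940. Single genes gave the largest part of each of these sums. *Lamb1* had means of 18700 against 28300 normalized counts, *Acta2* of 703 against 4140 and *Pdgfra* of 3230 against 2230. *Lamb1* and *Pdgfra* were not called, so the endoderm and glia sums are not levels of a cell type. The part of the cell make-up in the levels of the members was not tested.

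**Figure D4:**
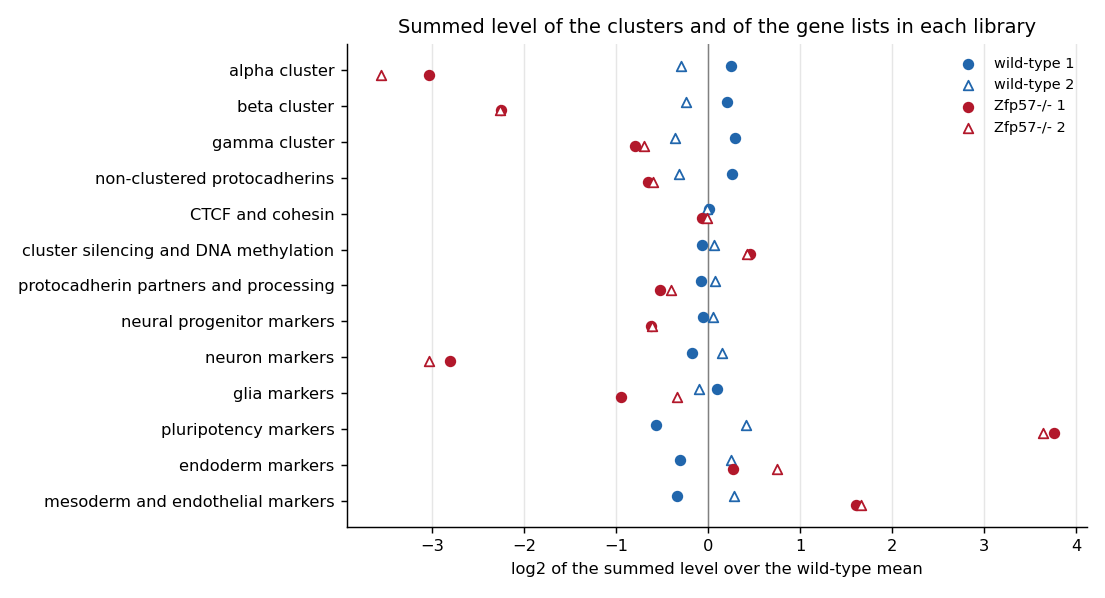
Points give, for each library, the log2 ratio of the summed normalized count of a cluster or gene list to its mean over the wild-type libraries. The alpha cluster and the neuron markers lie at about the same distance below wild-type, the gamma cluster lies less than 1 log2 unit below it, and the pluripotency markers lie above it.

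The hybrid origin of the cells allowed the parental alleles to be told apart in part of the reads. The members had 2730 and 2319 allelic reads in wild-type against 1057 and 1132 in Zfp57-/- libraries. Because JF1 was the mother and B6 the father, strain and parent of origin cannot be told apart. Both alleles contributed to the RNA of each cluster in wild-type and in Zfp57-/- cells. The JF1 share of the alpha reads was 0.504 ± 0.0753 in wild-type cells (mean ± SD, n = 2), that of the beta reads 0.493 ± 0.0169 and that of the gamma reads 0.468 ± 0.007. In Zfp57-/- cells these shares were 0.376 ± 0.128, 0.495 ± 0.0728 and 0.48 ± 0.00126. The alpha value of Zfp57-/- cells rests on 14 and 15 reads, and the 95% Wilson interval ran from 0.117 to 0.546 in the first of these libraries and from 0.248 to 0.699 in the second. These intervals cover counting error only. Other genes of chromosome 18 had a median share of 0.492 in wild-type against 0.483 in Zfp57-/- cells, over the 283 genes that had 10 or more allelic reads in each of the 4 libraries.

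Of the 58 members, 43 had enough allelic reads to be tested. In wild-type cells 5 had unequal alleles, which was 11.6% of those tested against 23.6% of all genes. All 5 were beta genes, which was 27.8% of the 18 beta members tested and near the 23.6% of all genes. They leaned in opposite directions, with 3 toward JF1 (14.3% of all genes) and 2 toward B6 (9.26% of all genes). *Pcdhb5* had 36 and 44 JF1 reads against 11 and 16 B6 reads (JF1 share 0.75 ± 0.0231, adjusted p 0.00232). *Pcdhb6*, its neighbour, had 10 and 20 JF1 reads against 4 and 2 (share 0.812 ± 0.138, adjusted p 0.0169). *Pcdhb15* had 50 and 41 against 25 and 19 (share 0.675 ± 0.0118, adjusted p 0.0204). These genes gave more JF1 than B6 reads in both wild-type libraries. *Pcdhb16* had 94 and 57 JF1 reads against 117 and 123 B6 reads (share 0.381 ± 0.0911, adjusted p 0.00994). *Pcdhb19* had 65 and 49 against 100 and 78 (share 0.39 ± 0.00574, adjusted p 0.0374). Here the B6 allele was the higher in both libraries, although *Pcdhb15* and *Pcdhb16* lie next to each other. DESeq2 called 0 members unequal in wild-type cells. The count was 1 without wild-type replicate 1 and 0 without wild-type replicate 2.

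In Zfp57-/- cells 1 of the 43 members was called, against 21.8% of all genes (9.36% toward JF1 and 12.5% toward B6). The members passed the filter on wild-type reads alone. Some had as few as 1 allelic read in Zfp57-/- cells, so that unequal alleles would often not be detectable there. *Pcdhb15* had 9 and 10 JF1 reads against 1 and 1 B6 reads (share 0.905 ± 0.00643, adjusted p 0.00433), which was the same direction as in wild-type cells. Next came *Pcdhga9*, with 18 and 19 JF1 reads against 5 and 12 B6 reads (share 0.698 ± 0.12, adjusted p 0.0878), and *Pcdhga3*, with 5 and 18 against 20 and 26 (share 0.305 ± 0.148, adjusted p 0.09), neither of which was called. DESeq2 called 0. The count was 2 without either Zfp57-/- replicate, and *Pcdhb15* was not among the 2 genes called without Zfp57-/- replicate 2. The abundant *Pcdhgc3* had a JF1 share of 0.446 ± 0.00247 in wild-type against 0.447 ± 0.0509 in Zfp57-/- cells, from 929 and 625 reads, and was called in neither (adjusted p 0.0586 and 0.155).

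The difference of the allelic ratio between genotypes was not called for any member, against 14.5% of all genes (4.18% with a ratio further toward JF1 in Zfp57-/- cells and 10.3% with one further toward B6). By edgeR 4 of the 43 had an unadjusted p under 0.05, and DESeq2 also called 0. The smallest adjusted p was 0.185, at *Pcdhgb1*, whose JF1 share was 0.41 ± 0.0783 in wild-type against 0.653 ± 0.137 in Zfp57-/- cells. *Pcdhb15*, at 0.196, and *Pcdhga2*, at 0.209, came next. The 4 alpha and 18 beta members tested had as few as 1 allelic read in the Zfp57-/- libraries together, so that a difference would often not be detectable at this depth.

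**Figure D5:**
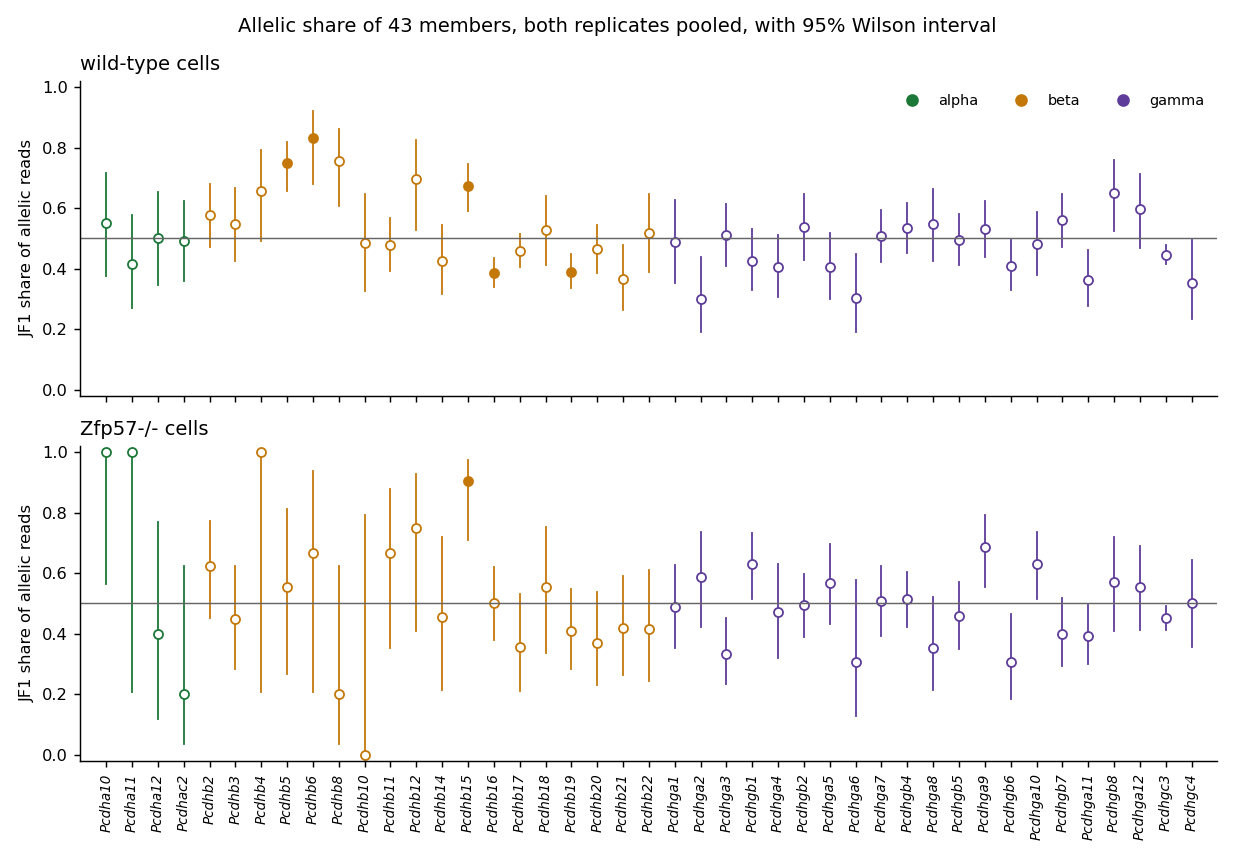
Points give the JF1 share of the allelic reads of 43 members, pooled over the replicates of wild-type (top) and Zfp57-/- (bottom) cells, with 95% Wilson intervals that cover counting error only, and filled points were called unequal by edgeR. The intervals are wide for the alpha and most beta members in Zfp57-/- cells, and most gamma members lie around 0.5 in both genotypes.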

How the data were processed

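Reads were trimmed (Trimmomatic 0.36), and unique STAR 2.5.4a alignments to GRCm38 were kept. From these the authors deposited raw counts of fragments per GENCODE gene made with featureCounts (Subread 1.6.0) on the matching strand. The authors' allelic table holds raw counts per gene after SNPsplit sorted the reads into JF1 and B6. The libraries were rRNA-depleted and stranded. Library totals were 7663520 to 10337082 bulk and 2837013 to 3826604 allelic counts. Replicates are given as biological duplicates. Ensembl identifiers were matched to symbols for 54721 of 55602 genes.

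Counts were analysed in R 4.3.3 with edgeR 4.0.16 (robust quasi-likelihood test, TMM scaling, Benjamini-Hochberg threshold of 0.05) for genes with more than 8 counts over the 4 libraries. DESeq2 1.42.0 was an alternative. Normalized counts are counts divided by the TMM library size relative to the mean. Alleles were compared in 1 fit with library terms, for autosomal genes whose normalized allelic counts reached 10 in each wild-type library. In both fits the log2 fold change is edgeR's, and its SE is the fold change divided by the square root of F. Simulated data with 200 genes changed by 2 log2 units gave back 98.0% of them in the genotype comparison, with 9 false calls, over 19572 genes. The changed genes were drawn from the better-counted ones, and the same set spread was used for all genes. The recovery therefore does not apply to members with few counts. Python 3.11.15 was used for tables and figures.

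Every member may be named. Full values are given, per cluster, for the 3 members with the largest mean counts and, in each direction, the 2 of lowest adjusted p, and for all 5 C-type members. Of the allelic contrasts, the 3 members of lowest adjusted p and every call are given, and for a gene list the 2 genes of lowest adjusted p, up and down. The values of 1 listed gene are not reported here. Other members were added as examples after their values were seen. The members and the gene lists were chosen with earlier results of these data known. Replicate numbers are not said to pair the samples. No sequence is printed.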

Additional observations from a re-analysis of the deposited data

How the results depend on the processing

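Leaving out 1 library at a time moved the number of members called between genotypes (29) over 13 to 44, the lower calls over 3 to 9 in alpha, 10 to 18 in beta and 0 to 17 in gamma, the unequal members over 0 to 7 in wild-type and 1 to 2 in Zfp57-/- cells, and the genotype-by-allele calls over 0 to 1. Such fits have 1 library in a genotype, which is assumed to vary like the others. The genotype calls over all genes also rose without either wild-type replicate and fell without either Zfp57-/- replicate. An adjusted p of 0.01 left 16 members, with 2 in alpha and 1 in gamma, and 2 unequal in wild-type cells. DESeq2 called 0 members with unequal alleles in either genotype. The *Actb* scale gave log2 cluster levels of -4.05, -3.02 and -1.53 for alpha, beta and gamma, in place of -3.28, -2.26 and -0.74. The other alternatives kept these counts within 1.5 times and these levels within the replicate SD. The cause of these changes was not tested beyond the loss of a library.

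Of 638 fold changes of single members over all alternatives, 557 kept their direction and side of the threshold, 42 lost and 27 gained a call, and 12 changed sign, all in gamma members. *Pcdhga1* stood at -0.70 on the *Actb* scale, at -0.01 with the stricter count filter and at or just below 0 (-0.00) with upper-quartile scaling, and *Pcdhgb2* at 0.01 with the replicate block. Leaving out a library gave -0.21 to 0.21 for *Pcdhga1*, -0.89 to 0.41 for *Pcdhgb1*, -0.40 to 0.41 for *Pcdhgb2*, -0.85 to 0.18 for *Pcdhgb4*, -0.56 to 0.05 for *Pcdhga11* and -1.10 to 0.42 for *Pcdhga12*.

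With the replicate number as a block, 33 members were called between genotypes (10 alpha, 18 beta and 5 gamma), 4 were unequal in wild-type and 1 in Zfp57-/- cells, and 0 differed by genotype and allele, while the calls over all genes went from 5522 to 6984. Over 10106 genes, the deviations from the group means of libraries with the same number had a correlation of 0.135. Depth limits the alpha genes most, as the 14 of them together had 26 and 19 counts in the Zfp57-/- libraries.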

Other observations

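The members were richer in reads that tell the alleles apart than the libraries as a whole. Their allelic reads came to 57.7% and 55.7% of their bulk counts in wild-type and to 57.8% and 56.1% in Zfp57-/- libraries, whereas all allelic counts came to between 36.1% and 37.0% of all bulk counts. Of the 58 members, 27 had at least 10 allelic reads in every library, and 20 of these were gamma genes, 7 were beta genes and 0 were alpha genes.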
